A study of Homo sapiens with 4 samples.

Results

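The clustered protocadherins are cell adhesion receptors encoded side by side on human chromosome 5q31 in an alpha, a beta and a gamma gene cluster. They were represented on the array by 32 of 67528 transcript clusters, the array's features for whole transcribed loci. A transcript cluster was a member if any gene symbol given to it began with PCDHA, PCDHB or PCDHG, which left 5 alpha, 19 beta and 8 gamma features. Of these, 30 carried 1 symbol, 1 carried 15 alpha symbols together and 1 carried PCDHB10 and PCDHB9 together. Of the 24 gamma genes in the RefSeq gene table, 16 had no feature with their symbol and were not analysed here.

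All 4 arrays hold RNA of SH-SY5Y, an established human neuroblastoma line with sympathetic neuroblast character. In 2 of them the cells carried an LSD1+8a shRNA, a short hairpin RNA aimed at LSD1+8a. LSD1, encoded by KDM1A, is a histone demethylase, and LSD1+8a is its neuronal isoform, made by including exon 8a. In the other 2 they carried a control shRNA. Both groups were differentiated alike with 10 μM retinoic acid for 4 days and then with 50 ng/mL BDNF, a neurotrophin, for 3 days in medium without serum. The comparison asks what loss of the neuronal isoform does to expression in differentiated cells. The labels do not say whether replicates were separate cultures, so the spread between arrays may be technical.

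As background, each neuron switches on a small, partly random set of clustered protocadherin promoters and so acquires its own surface identity. The proteins bind the same isoform on a facing membrane, which underlies self-avoidance of dendrites and the tiling of axons. In the alpha and gamma clusters each variable exon has a promoter of its own and is spliced to constant exons shared by the whole cluster. Beta genes are single-exon genes with no constant part. Most of the promoters carry a conserved sequence element that the insulator protein CTCF binds together with cohesin, and DNA methylation and H3K9 methylation hold unused promoters silent.

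No clustered protocadherin passed the test between LSD1+8a shRNA and control cells. With limma over all transcript clusters and Benjamini-Hochberg adjustment, 0 of 32 members had an adjusted p under 0.05, against 1.3% of all transcript clusters (150, or 0.222%, higher and 731, or 1.08%, lower). Without adjustment, 5 members had a p under 0.05, beside 32.5% of all transcript clusters. They were PCDHA6, PCDHB8, PCDHB12 and PCDHB13 on the lower side, where 11.8% of all transcript clusters fell, and PCDHGB7 on the higher side, where 20.7% did. No member differed by 1.5-fold, which 3.59% of all transcript clusters did. The 95% interval of the difference lay wholly within 1.5-fold in either direction for 28 members, and for 75.6% of all transcript clusters. The other 4 were PCDHA6, PCDHB11, PCDHB12 and PCDHGB7. Among the 28, PCDHA7, PCDHA11, PCDHB1, PCDHB16, PCDHB17P and PCDHGA10 lay below the array background described below. For them a narrow interval does not bound a change in transcript amount. When the fit was limited to the 25324 transcript clusters with a gene symbol, where 21.8% passed, PCDHA6 alone among the members passed, on the lower side. It was also the 1 member called after array medians were centred, where 4.8% of transcript clusters passed.

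**Figure D1:**
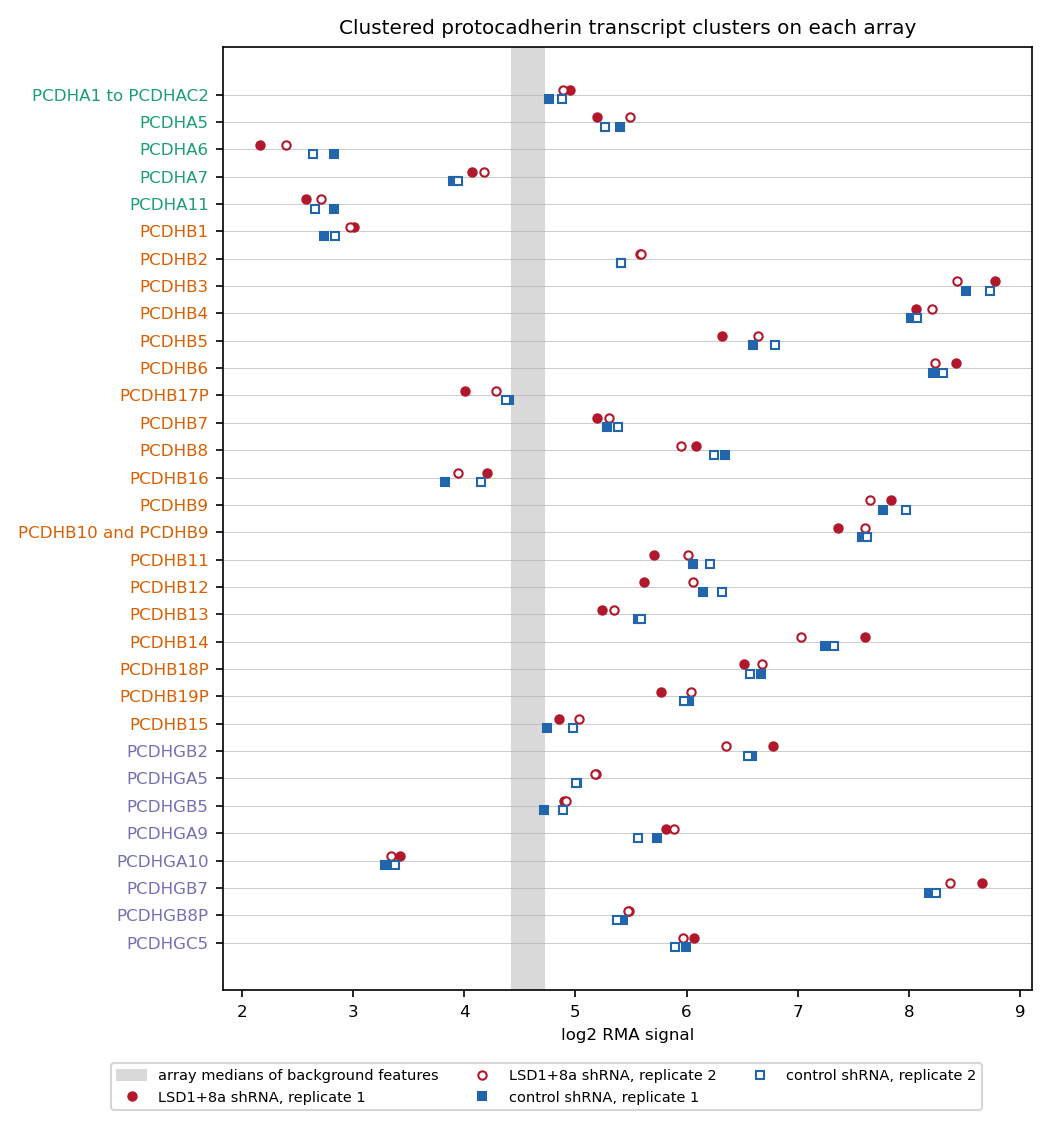
Log2 RMA signal (x axis) of each clustered protocadherin feature (rows, in gene order from alpha to gamma) on the LSD1+8a shRNA arrays (red circles) and the control shRNA arrays (blue squares); filled symbols are replicate 1 and open symbols replicate 2. The grey band spans the array medians of background features, from 4.43 to 4.72. Of the 32 rows, 7 lie to the left of their arrays' background medians on all 4 arrays.

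Signals on such an array can be read only against its background. The array carries background features grouped by the number of G and C bases in a probe, and the median of those with 13 to 18 was 4.71 and 4.72 for LSD1+8a shRNA and 4.50 and 4.43 for control shRNA. From the feature with 13 to that with 18, signals ran from 2.91 to 6.13 with LSD1+8a shRNA and from 2.81 to 5.98 with control shRNA. The medians are thus a rough guide, and they were higher on both LSD1+8a shRNA arrays than on either control array. By that guide 25 members lay above background on all 4 arrays (2 alpha, 16 beta, 7 gamma) and 7 on none. The 7 were PCDHA6, PCDHA7, PCDHA11, PCDHB1, PCDHB16, the pseudogene PCDHB17P and PCDHGA10. Different features use different probes, so their signals do not rank the genes by expression. In a lysate of many cells, fewer cells with an active promoter and less RNA per cell cannot be told apart either.

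The targeted gene was measured only as a whole. KDM1A had a log2 signal of 8.76 and 8.78 in LSD1+8a shRNA cells, against 9.10 and 9.25 in control cells. The difference was -0.41 ± 0.10 (SE), with an adjusted p of 0.0735 by limma over all transcript clusters and of 0.0320 over those with a symbol. Exon 8a has no value of its own here, so the knockdown of the isoform itself was not measured.

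Of the 5 alpha features, 3 lay below background. PCDHA6 encodes 1 of the stochastically chosen alpha isoforms. Its feature had a log2 signal of 2.16 and 2.39 in LSD1+8a shRNA cells, against 2.83 and 2.64 in control cells. The groups did not overlap, and the difference was -0.45 ± 0.12 (SE; 95% interval -0.74 to -0.16; limma adjusted p = 0.0807). All 4 values lie below the lowest single background feature of their own arrays, so the size of this difference cannot be read as a change in transcript amount. Over transcript clusters with a symbol its limma adjusted p was 0.0383.

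PCDHA5 read 5.20 and 5.49 in LSD1+8a shRNA cells and 5.40 and 5.27 in control cells, with the control values inside the range of the others. PCDHA7 read 4.07 and 4.18 against 3.90 and 3.95 in control cells, without overlap and below background on every array. PCDHA11 read 2.58 and 2.71 in LSD1+8a shRNA cells and 2.83 and 2.66 in control cells. The feature with 15 symbols, from PCDHA1 to the C-type genes PCDHAC1 and PCDHAC2, read 4.95 and 4.88 in LSD1+8a shRNA cells against 4.76 and 4.88 in control cells. Its difference was 0.10 ± 0.10 (SE; 95% interval -0.14 to 0.33; limma adjusted p = 0.5002). It covers many promoters at once, and a switch between isoforms within it would not be seen.

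The promoters of the beta genes share a short stretch of sequence. RefSeq promoter windows (GRCh38.p14, 250 bases before to 50 after the gene start) were given for 47 genes of the family, 23 of them among the 30 symbols with a feature of their own. Counting all words of 9 bases, the one found in most beta windows was GGTGGCGCT, in 13 of 14 genes. It stood in 0.501% of all 35116 windows on either strand. In the alpha windows it was GATGTCGCT, in 9 of 13 genes and 0.105% of all windows. The gamma windows shared less, with GCGCCGCTG in 10 of 20 genes and 1.28% of all windows. The words were picked from these windows, so their counts in the family are a description. The beta and alpha words end in CGCT, which by itself stands in 70.0% of all windows.

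The beta word began between 2 and 84 bases before the gene start (median 66), the alpha word between 43 and 86 bases (median 53). Stretches of 60 bases around the word are shown, with the word in capitals, for the 3 beta members with an unadjusted p under 0.05, for the pair PCDHB9 and PCDHB10 that shares a feature, and for 3 alpha members. All lie on the plus strand, at chr5:141177748-141177807 for PCDHB8, chr5:141208614-141208673 for PCDHB12, chr5:141213836-141213895 for PCDHB13, chr5:141187045-141187104 for PCDHB9, chr5:141192270-141192329 for PCDHB10, chr5:140821513-140821572 for PCDHA5, chr5:140827868-140827927 for PCDHA6 and chr5:140834143-140834202 for PCDHA7.
PCDHB8: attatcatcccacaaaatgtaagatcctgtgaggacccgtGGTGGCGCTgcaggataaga
PCDHB13: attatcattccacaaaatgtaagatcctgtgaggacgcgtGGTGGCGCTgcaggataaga
PCDHB12: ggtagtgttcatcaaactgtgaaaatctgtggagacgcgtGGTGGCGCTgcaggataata
PCDHB9: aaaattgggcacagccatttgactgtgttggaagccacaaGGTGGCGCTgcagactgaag
PCDHB10: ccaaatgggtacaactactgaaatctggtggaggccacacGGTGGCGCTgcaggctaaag
PCDHA5: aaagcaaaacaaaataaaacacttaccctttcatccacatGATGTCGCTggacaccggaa
PCDHA6: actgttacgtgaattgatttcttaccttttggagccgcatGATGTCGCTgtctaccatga
PCDHA7: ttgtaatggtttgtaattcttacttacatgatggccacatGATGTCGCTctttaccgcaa

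Over the 13 beta genes with the word, 78 pairs of such stretches matched at 23 to 58 of 60 bases, with a median of 33. The lowest match was between PCDHB7 and PCDHB9, which also read lower in LSD1+8a shRNA cells, with overlapping groups. No test was made of likeness against the difference. PCDHB8 and PCDHB13 matched at 58, the most of any pair. PCDHB12 and PCDHB13 matched at 45 and PCDHB8 and PCDHB12 at 43, against 44 for PCDHB9 and PCDHB10. Genes this alike near their starts may also be alike in the transcribed part, where probes could read both, so the values of PCDHB8 and PCDHB13 need not be independent. That was not tested, since probe sequences were not used here.

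PCDHB1 is known to lack the conserved element of the other promoters. Its window holds a stretch that differs from the beta word by 1 base, C6T (counted from the word's 5′ end, the word's base first). The 200 bases before its gene start, at chr5:141051174-141051373 on the plus strand, are shown with that stretch in capitals.
PCDHB1: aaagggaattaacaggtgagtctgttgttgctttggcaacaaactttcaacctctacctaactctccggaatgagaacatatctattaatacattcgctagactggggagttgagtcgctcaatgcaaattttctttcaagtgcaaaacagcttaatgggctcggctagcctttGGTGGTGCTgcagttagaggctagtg
The feature of PCDHB1 read 3.01 and 2.97 in LSD1+8a shRNA cells, against 2.73 and 2.84 in control cells, below background on all arrays. Its difference was 0.20 ± 0.10 (SE), with a limma adjusted p of 0.188.

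Among the beta features, 7 read higher and 12 lower in LSD1+8a shRNA cells. PCDHB3 read 8.78 and 8.43 in LSD1+8a shRNA cells and 8.51 and 8.73 in control cells, which overlap. PCDHB6 read 8.43 and 8.23 in LSD1+8a shRNA cells, against 8.22 and 8.31 in control cells. PCDHB4 read 8.07 and 8.21, against 8.02 and 8.08 in control cells. For each of these 3 beta isoforms the groups overlapped, and the 95% intervals ran from -0.36 to 0.32 for PCDHB3, from -0.19 to 0.32 for PCDHB6 and from -0.15 to 0.33 for PCDHB4.

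PCDHB8, PCDHB11, PCDHB12 and PCDHB13 read lower in LSD1+8a shRNA cells on both arrays, and the last 3 are neighbours in the gene order. That run was seen in these same values. With the pseudogene PCDHB17P, which lay below background, 5 of 19 beta features did not overlap on the lower side. Of all transcript clusters, 21.4% did so. PCDHB12 read 5.62 and 6.06 in LSD1+8a shRNA cells, against 6.15 and 6.31 in control cells. Its difference was -0.39 ± 0.16 (SE; 95% interval -0.77 to -0.02; limma adjusted p = 0.139). Without replicate 1 of the LSD1+8a shRNA arrays it was -0.17, and -0.61 without their replicate 2, so its size rests largely on replicate 1.

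PCDHB13 read 5.23 and 5.35 in LSD1+8a shRNA cells, against 5.56 and 5.59 in control cells. Both replicate pairs lie close together and apart from each other, with a difference of -0.28 ± 0.10 (SE; limma adjusted p = 0.109). PCDHB8 read 6.08 and 5.95, against 6.34 and 6.25 in control cells, a difference of -0.28 ± 0.10 (SE; limma adjusted p = 0.121). PCDHB11 read 5.70 and 6.01, against 6.06 and 6.21 in control cells, again without overlap (-0.28 ± 0.13, SE; limma adjusted p = 0.188). As for PCDHB12, its size rests largely on replicate 1 of the LSD1+8a shRNA arrays, at -0.12 without it and -0.43 without replicate 2. None of the 4 passed, and the features on either side of the PCDHB11 to PCDHB13 run, PCDHB10 with PCDHB9 and PCDHB14, had overlapping groups.

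**Figure D2:**
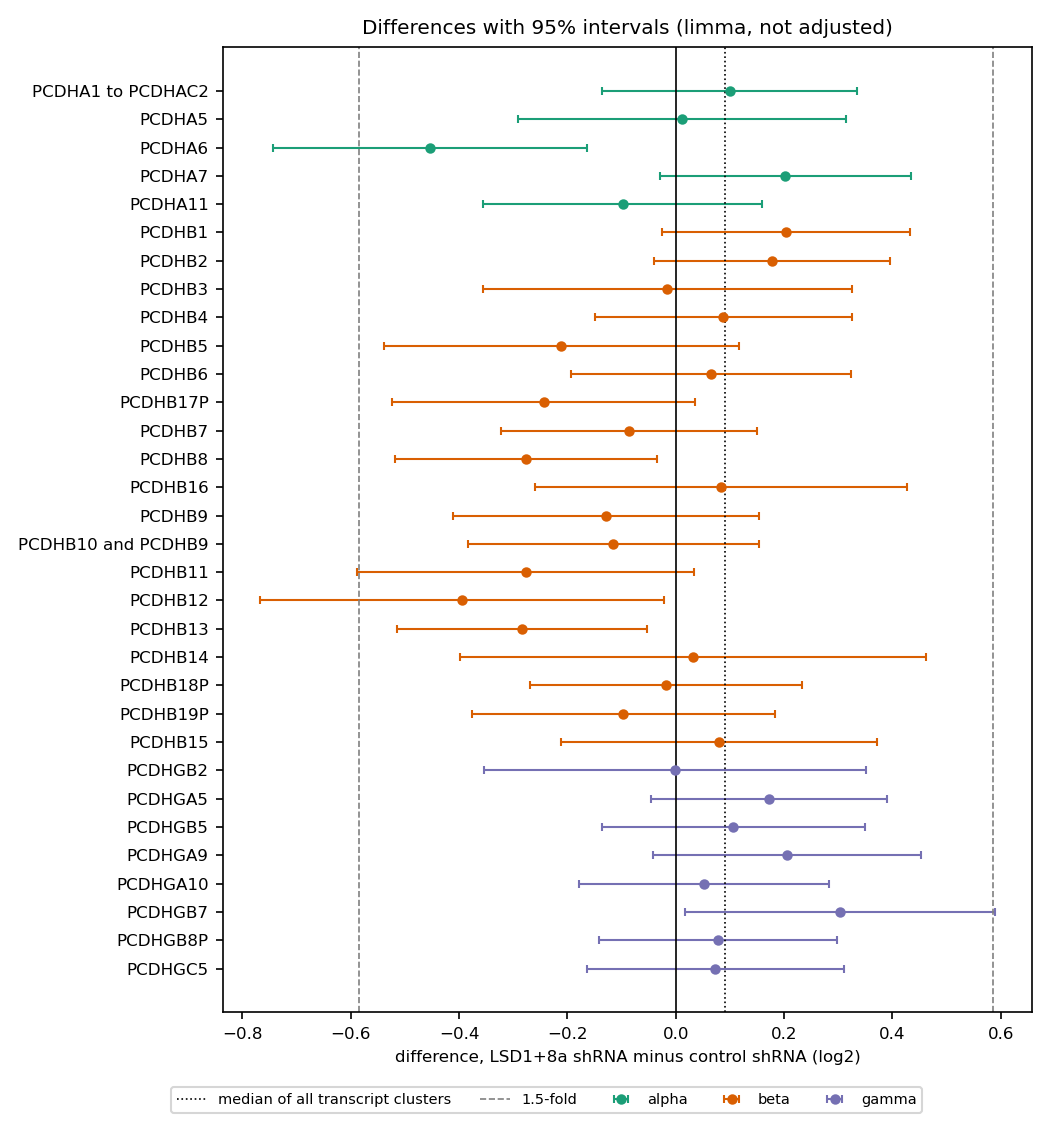
Difference in log2 signal, LSD1+8a shRNA minus control shRNA (x axis), for each clustered protocadherin feature (rows in gene order), with unadjusted 95% intervals from limma; colours mark the alpha, beta and gamma clusters. The dotted line is the median of all transcript clusters (0.09) and the dashed lines mark 1.5-fold. All 32 points lie within the dashed lines, and the intervals of PCDHA6, PCDHB11, PCDHB12 and PCDHGB7 cross one of them.

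PCDHB9 and the feature shared by PCDHB10 and PCDHB9 gave like differences between groups, but not like values on single arrays. PCDHB9 read 7.84 and 7.65 in LSD1+8a shRNA cells and 7.77 and 7.97 in control cells. The shared feature read 7.37 and 7.61 in LSD1+8a shRNA cells and 7.58 and 7.62 in control cells. Their differences were -0.13 and -0.12, both with overlapping groups (limma adjusted p = 0.470 and 0.493). The shared feature cannot assign its signal to either gene.

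PCDHB14 shows how far single arrays stood apart. It read 7.60 and 7.03 in LSD1+8a shRNA cells, with both control values, 7.24 and 7.33, in between. Leaving out the first of these LSD1+8a shRNA arrays gave a difference of -0.25, and leaving out the other gave 0.32. PCDHB2 was the opposite case, at 5.58 and 5.59 in LSD1+8a shRNA cells against 5.41 and 5.41 in control cells (0.18 ± 0.09, SE; limma adjusted p = 0.218). After cyclic loess, a scaling that follows the level of the signal, the difference of PCDHB2 was 0.02. The pseudogenes PCDHB18P and PCDHB19P overlapped between groups, while PCDHB17P read 4.01 and 4.28 against 4.40 and 4.38 in control cells, below background on every array.

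The replicate LSD1+8a shRNA arrays lay further apart for the beta features than for transcript clusters at large. The median size of the gap between replicates over the 19 beta features was 0.20 in LSD1+8a shRNA cells and 0.10 in control cells. Over all transcript clusters it was 0.10 in LSD1+8a shRNA cells and 0.12 in control cells. The median size of the difference between groups was 0.12 for the beta features, and 0.19 for all transcript clusters. The difference was larger than both replicate gaps for 4 of 19 beta features, 2 of 5 alpha and 4 of 8 gamma features, beside 52.2% of all transcript clusters.

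The median difference of the gamma features was 0.09, as over all transcript clusters, and none passed. PCDHGB7, a gamma isoform of the B type, read 8.66 and 8.37 in LSD1+8a shRNA cells against 8.18 and 8.24 in control cells. The groups did not overlap, and the difference was 0.30 ± 0.12 (SE; 95% interval 0.02 to 0.59; limma adjusted p = 0.139). It was 0.16 when replicate 1 of the LSD1+8a shRNA arrays was left out, 0.44 when replicate 2 was, and 0.18 with array medians centred. Neither the beta word nor the gamma word stands in its window. The 200 bases before its gene start, at chr5:141417477-141417676 on the plus strand, are shown because it was the only member with an unadjusted p under 0.05 on the higher side.
PCDHGB7: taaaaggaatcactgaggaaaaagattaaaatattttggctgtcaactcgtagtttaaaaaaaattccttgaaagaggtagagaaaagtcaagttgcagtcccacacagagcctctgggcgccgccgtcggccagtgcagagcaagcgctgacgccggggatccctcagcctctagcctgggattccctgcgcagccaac

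PCDHGA9 read 5.82 and 5.88 in LSD1+8a shRNA cells, against 5.73 and 5.56 in control cells (0.21 ± 0.10, SE; limma adjusted p = 0.212). PCDHGA5 read 5.187 and 5.175, against 5.015 and 5.002 in control cells, with tight replicates and no overlap. Its difference was 0.17 ± 0.09 (SE; limma adjusted p = 0.230), and 0.005 after cyclic loess. Over all transcript clusters at levels between 4 and 6 the median difference was also 0.17. On the higher side, 44.1% of all transcript clusters did not overlap. PCDHGB5 read 4.90 and 4.92 in LSD1+8a shRNA cells and 4.72 and 4.88 in control cells. PCDHGB2 read 6.78 and 6.35 in LSD1+8a shRNA cells, on either side of the control values of 6.59 and 6.55. PCDHGA10 lay below background throughout, at 3.42 and 3.34 in LSD1+8a shRNA cells and 3.28 and 3.38 in control cells.

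C-type isoforms differ from the rest in that their promoters are not chosen at random in most neurons. PCDHGC5 was the only one with a feature of its own. It read 6.070 and 5.964 in LSD1+8a shRNA cells and 5.996 and 5.891 in control cells, which overlap, with a 95% interval of the difference from -0.16 to 0.31 (limma adjusted p = 0.627).

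By gene cluster, the median difference was 0.01 over the 5 alpha features, -0.09 over the 19 beta features and 0.09 over the 8 gamma features, beside 0.09 over all transcript clusters. Higher values in LSD1+8a shRNA cells were found for 3 alpha, 7 beta and 7 gamma features, and lower ones for 2 alpha, 12 beta and 1 gamma. The groups did not overlap for 9 members on the higher side and 6 on the lower, beside 44.1% and 21.4% of all transcript clusters. All 5 such gamma features were higher, and 5 of 7 such beta features lower. That gamma count depended on the scaling. After cyclic loess PCDHGB7 differed by 0.39, PCDHGA9 by 0.07, PCDHGA5 by 0.005, PCDHGB5 by -0.06 and PCDHGB8P by -0.08.

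The sign of the alpha and gamma medians depended on how the arrays were scaled. Signals at middle and low levels were on the whole higher in LSD1+8a shRNA cells, with a median difference over all transcript clusters of 0.17 between levels of 4 and 6, 0.03 between 6 and 8, and -0.10 at 8 and above. The 16 members between 4 and 6 had a median of 0.08, the 8 between 6 and 8 one of -0.12, and the 4 at 8 and above one of 0.08. Cyclic loess, a scaling that follows the level of the signal, gave medians of -0.15 for alpha, -0.08 for beta and -0.04 for gamma, beside 0.01 for all transcript clusters. After it 10 members were higher and 22 lower, in place of 17 and 15 as deposited. PCDHGB7 differed there by 0.39, PCDHB12 by -0.51 and PCDHB13 by -0.44, and limma called 0 members, beside 1.31% of all transcript clusters. At an unadjusted p under 0.05 there were 1 higher and 7 lower, beside 10.2% and 15.2%, in all 8 of 32 beside 25.3%. Centring the array medians moved the median of all transcript clusters to -0.03 and left 6 members higher and 26 lower.

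**Figure D3:**
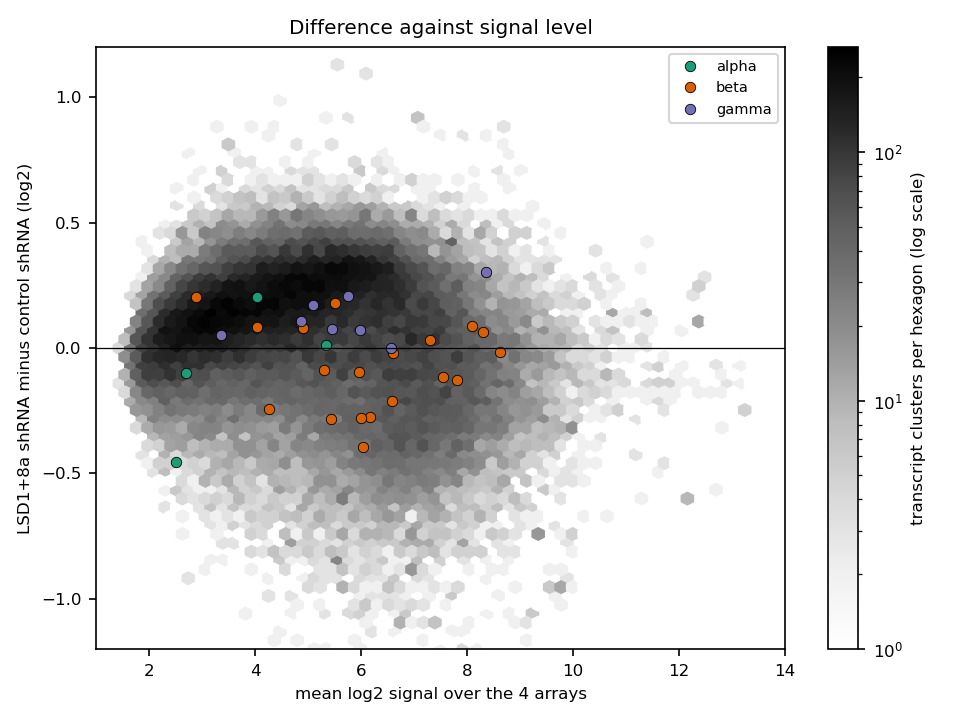
Difference in log2 signal, LSD1+8a shRNA minus control shRNA (y axis), against the mean log2 signal over the 4 arrays (x axis); grey hexagons count all transcript clusters on a log scale and coloured points are the clustered protocadherins. Of 67528 transcript clusters, 132 lie outside the plotted range of 1.2 in either direction. The bulk of features between levels of 4 and 6 lies above 0, and beta members near 6 lie below it.

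Of the regulators of clustered protocadherin promoters, SMCHD1 and TET1 fell in LSD1+8a shRNA cells. Of 27 listed genes for insulation, cohesin loading, DNA methylation and H3K9 methylation, 24 had a feature, all above background on every array. Limma over all transcript clusters called 2 lower and 0 higher, beside 1.08% and 0.222% of all transcript clusters. With these 2, 13 of 24 had an unadjusted p under 0.05 on the lower side, beside 11.8% of all transcript clusters. Over transcript clusters with a symbol, 11 of the list were called lower, where 10.4% of features were, and 0 higher, where 11.4% were. The median difference of the list was -0.30 as deposited and -0.22 after cyclic loess.

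SMCHD1, a chromatin protein that helps keep the clustered protocadherin genes silent, read 7.25 ± 0.01 in LSD1+8a shRNA cells and 8.00 ± 0.13 in control cells (SD, n = 2). It fell 1.68-fold (limma adjusted p = 0.0386). TET1, which oxidises methylated cytosine, fell 1.74-fold, to 7.27 ± 0.07 in LSD1+8a shRNA cells against 8.07 ± 0.13 in control cells (SD, n = 2; limma adjusted p = 0.0379). Both were also called after cyclic loess (limma adjusted p = 0.0438 and 0.0436), and neither was called without control replicate 1 or without control replicate 2, when limma called no gene of the 4 lists of related genes.

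CTCF, the insulator protein at the promoters, had 8.54 ± 0.03 in LSD1+8a shRNA cells and 8.88 ± 0.06 in control cells (SD, n = 2), a difference of -0.34 ± 0.10 (SE). Its limma adjusted p was 0.0855 over all transcript clusters and 0.0385 over those with a symbol. The cohesin subunit gene STAG1 differed by -0.52, the cohesin loader NIPBL by -0.46 and REST, a repressor of neuronal genes, by -0.50, with the same pattern of a limma adjusted p above 0.05 in the first fit (0.0643, 0.0701 and 0.0554) and below it in the other (0.0261, 0.0306 and 0.0203). The DNA methyltransferase DNMT3B differed by -0.03 and the H3K9 methyltransferase SETDB1 by -0.18, and neither passed in either fit.

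**Figure D4:**
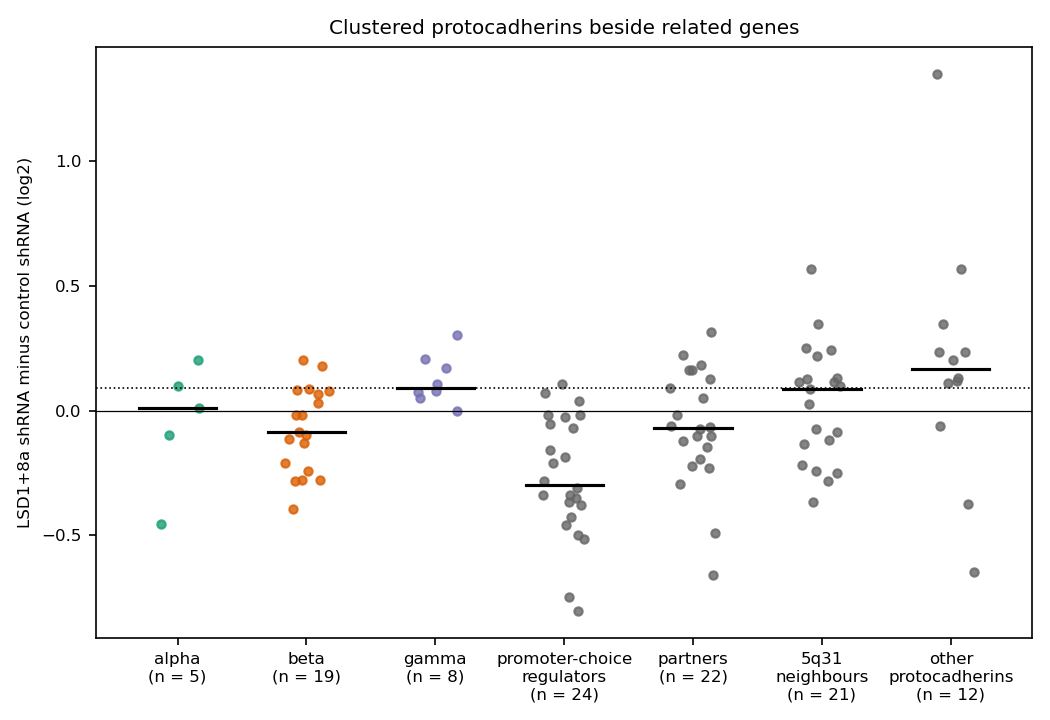
Difference in log2 signal, LSD1+8a shRNA minus control shRNA (y axis), for the alpha, beta and gamma protocadherin features and for 4 lists of related genes (x axis, with the number of features in each); points are features, spread sideways for legibility, and bars are medians. The dotted line is the median of all transcript clusters. The list of promoter-choice regulators has the lowest median (-0.30), and the outlying point at 1.35 among other protocadherins is PCDH17.

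Genes that act downstream of the receptors or process them mostly did not pass. Of 22 measured partners, limma called 1 lower and 0 higher, beside 1.08% and 0.222% of all transcript clusters. The list median was -0.07, beside 0.09 over all. The called gene was NLGN1, a synaptic adhesion protein known to pair with gamma protocadherins, at 4.86 and 4.96 in LSD1+8a shRNA cells against 5.57 and 5.58 in control cells (limma adjusted p = 0.0421). Its LSD1+8a shRNA values lay close above the background medians of those arrays, 4.71 and 4.72. All 4 of its values lay within the range of single background features. PRKCA, a protein kinase C in the pathway by which gamma protocadherins shape dendrites, differed by -0.49 ± 0.10 (SE; limma adjusted p = 0.0620).

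Neighbouring genes on 5q31 outside the family gave 0 calls among 21 by limma over all transcript clusters, with 3 higher and 2 lower at an unadjusted p under 0.05, beside 20.7% and 11.8% of all transcript clusters. Their median of 0.08 was close to the 0.09 over all. TAF7 and SLC25A2 lie between the beta and gamma clusters. TAF7, a subunit of the general transcription factor TFIID, read 8.93 and 9.26 in LSD1+8a shRNA cells and 9.37 and 9.32 in control cells. SLC25A2, a mitochondrial ornithine transporter gene, read 5.15 and 5.55 in LSD1+8a shRNA cells and 5.14 and 5.06 in control cells. Neither passed (limma adjusted p = 0.220 and 0.262). HDAC3, the histone deacetylase gene beyond the gamma cluster, differed by -0.36 ± 0.09 (SE; limma adjusted p = 0.0771, and 0.0331 over transcript clusters with a symbol). In that second fit the neighbours PCDH1 and PCDH12 were called higher, where 11.4% of features were. HDAC3 alone was called lower, where 10.4% were.

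Among 12 protocadherins outside the clusters limma called 1, which rose, beside 0.222% of all transcript clusters on the higher side. PCDH17 read 7.69 and 8.03 in LSD1+8a shRNA cells, against 6.35 and 6.67 in control cells (limma adjusted p = 0.0302). PCDH1 differed by 0.57, PCDH12 by 0.35 and PCDH18 by -0.65. Each passed over transcript clusters with a symbol, where 21.8% did, but not over all. PCDH12 lay below background on every array. PCDH1 and PCDH12 are also among the 5q31 neighbours. The difference between these genes and the clustered ones was not tested.

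Markers of other cell types were checked because SH-SY5Y cultures can hold flat, substrate-adherent cells. All 11 measured neuroblast and neuron markers of 14 listed were above background on every array. CHGB, a granin of secretory vesicles, rose in LSD1+8a shRNA cells, to 9.98 ± 0.03 against 9.31 ± 0.13 in control cells (SD, n = 2; limma adjusted p = 0.0459). It was the 1 marker called, beside 0.222% of all transcript clusters on the higher side. ISL1, a transcription factor of sympathetic neurons, differed the other way, by -0.46 ± 0.10 (SE; limma adjusted p = 0.0679). In this list 4 genes were higher and 1 lower at an unadjusted p under 0.05, beside 20.7% and 11.8% of all transcript clusters. The list median was 0.27, beside 0.09 over all transcript clusters. Of mesenchymal markers 8 of 10 measured, and of Schwann or glial markers 4 of 5, lay above background on every array. Limma called 0 genes of either list. At an unadjusted p under 0.05, 2 mesenchymal genes were higher and 1 lower, and 2 Schwann or glial genes were higher and 0 lower, where 20.7% of all transcript clusters were higher and 11.8% lower. The summed linear signal of the mesenchymal list was 816.5 and 825.6 in LSD1+8a shRNA cells, against 840.5 and 824.2 in control cells, which overlap. That of the Schwann or glial list was 275.1 and 284.7, against 246.3 and 229.2 in control cells, without overlap. These signals lay near background. S100B, SOX10 and GFAP read 5.85 to 6.48, close to the highest single background features (up to 6.13). ERBB3, at 4.89 to 5.02, lay within the range of those features, and FABP7 lay below background. Background medians were also higher on the LSD1+8a shRNA arrays, and their part in the sums was not tested. Of single transcript clusters, 44.1% did not overlap on the higher side. The median difference of the Schwann or glial genes was 0.17, beside 0.09 over all transcript clusters. After cyclic loess it was 0.08, beside 0.01. The part of any of these in the protocadherin values was not tested.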

How the data were processed

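The deposited values are log2 signals, and the submitters' processing notes name RMA as the method. In its usual form RMA subtracts background, applies quantile normalization and fits 1 value per probe set. Not given in the sources used here are its software, annotation and build. No detection calls were used. Of 70523 features, 67528 transcript clusters were tested. GEO's platform table gave 1 symbol to 23781 of them, several to 1543 and none to 42204. The members' 42 symbols were all in the RefSeq gene table.

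LSD1+8a shRNA minus control shRNA was fitted per transcript cluster with limma 3.58.1 in R 4.3.3 (lmFit, eBayes) on the deposited values, without a filter or replicate term. P-values were adjusted by Benjamini-Hochberg over all transcript clusters (threshold 0.05). Errors are limma's SE or the SD over 2 arrays. The number of arrays limits the precision, with 2 residual degrees of freedom plus 4.81 borrowed across features. For other genes the brightest feature with 1 symbol was used. The members and lists were chosen with earlier results of these data known. Named are the brightest and dimmest members per gene cluster, C-type isoforms, shared features and up to 5 genes per list, and further members were chosen after their values were seen. The fit was tested on simulated data. Figures used matplotlib 3.10.9.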

Additional observations from a re-analysis of the deposited data

How the results depend on the processing

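Of 13 alternative fits, 3 called 1 member and 10 called 0. The 1 member was PCDHA6, on the lower side, when only transcript clusters with at least 1 symbol were fitted, with 1 feature per gene, and with array medians centred. It was also the 1 member at an adjusted p under 0.1. Leaving out any array gave 0 calls, and the replicate number as a block gave 0, so it changed no member's call. Deviations of replicate 1 from its group mean were close to uncorrelated between groups (correlation 0.00156 over transcript clusters). That does not show whether the arrays were handled in pairs. Signs held in every fit that included the member for 16 of 32 members, among them PCDHA6, PCDHB8, PCDHB11, PCDHB12, PCDHB13 and PCDHGB7. The alpha median turned to -0.10 after quantile normalization, -0.11 with array medians centred and -0.15 after cyclic loess, and the gamma median to -0.011, -0.030 and -0.045. With 1 array left out the alpha median ran from -0.14 to 0.065, beta from -0.12 to -0.04 and gamma from 0.10 to 0.15. Of 77 list genes 4 were called in the fit reported, 20 with 1 feature per gene, 19 over features with a symbol, 11 with medians centred, 11 above the median level, 7 with the replicate block and 0 to 5 with 1 array left out. The 4 stand beside 1.3% of all features, the 19 beside 21.8% of features with a symbol and the 11 with medians centred beside 4.8%. Calls also rose among features at large, so a larger count need not be particular to the list genes. For the fits with 1 feature per gene, above the median level and with the replicate block no such share is given here. Those counts cannot be weighed against a general rate. Over all features, centring gave 169 higher and 3074 lower calls and cyclic loess 98 and 785. The causes were not tested. Levels below background, as for 7 members, cannot be read as amounts.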
